A study of Mus musculus with 23 samples.

Results

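The 10 genes described here encode receptors that tune T cell activation, and they are 10 of the 53379 genes in the deposited count table. They were taken by symbol: the CD28 family members Cd28, Icos, Ctla4, Pdcd1 and Btla, and the inhibitory receptors Lag3, Havcr2, Tigit, Cd160 and Vsir. Counts came from 23 RNA-seq libraries of CD4+ T cells from spleens of C57BL/6 mice, sorted on CD45, CD3 and CD4 with CD8- cells kept, after 72 h of culture in 30 IU/ml IL-2. Unstimulated cells had IL-2 alone, stimulated cells had antibodies against CD3 and CD28 as well, and each was kept without niacin or with niacin at 5 mM. The genotype labels are wild type and Gpr109a-/-, a knockout of the niacin receptor gene, whose current symbol is Hcar2. This gave 8 groups of 3 libraries, apart from 2 for unstimulated knockout-labelled cells with niacin. Neither the age of the mice nor whether replicates were separate animals is given in the sources used here, so p-values measure the spread between libraries, which may be technical.

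A naive T cell is activated when its antigen receptor signals together with CD28, which binds CD80 and CD86 on antigen-presenting cells. CTLA-4 binds the same ligands more tightly and restrains the response, and ICOS, a relative of CD28, supports helper T cells after activation. PD-1 (Pdcd1), BTLA, LAG-3, TIM-3 (Havcr2), TIGIT, CD160 and VISTA (Vsir) pass inhibitory signals in most settings, and several are used as marks of activated, regulatory or exhausted T cells. An antibody against CD28 was part of the stimulus itself.

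Libraries held 13205565 to 30090018 counts, with a median of 24007159 and a second lowest of 20604050. The lowest total was in unstimulated knockout-labelled library 3 without niacin, whose column name lacked a tag found in the rest. In the stimulated niacin group with the wild-type label, mitochondrial genes took 0.187% and 0.216% of counts in libraries 1 and 2, against 0.605% in library 3. Those shares were the lowest of all libraries. Unstimulated wild-type-labelled library 1 without niacin was also below its group (0.346%, against 0.937% and 0.802%). So were knockout-labelled libraries 3, unstimulated without niacin (0.407%, against 0.795% and 0.643%) and stimulated with niacin (0.374%, against 0.562% and 0.514%). Hcar2, the targeted gene, had 169 counts over 10 of the 11 knockout-labelled libraries and 1 count over the 12 wild-type-labelled libraries, which goes against the labels. Every direction by genotype is therefore that of the library labels. As a check of the cell type, Cd4 stood at 400.1 to 653.2 CPM (counts scaled to library total with TMM factors) in all 23 libraries. Cd8a stood at 0.0683 to 5.02 CPM and Cd8b1 at 7.02 to 28.8 CPM. Unstimulated knockout-labelled library 3 without niacin also stood apart in composition. Its TMM factor was 0.885, against 1.03 to 1.14 in the other unstimulated libraries. In it, 31 transcription factors known to act on receptor genes summed to 8187 CPM (others 3989 to 5079). The 4 CD226 and nectin-binding receptor genes summed to 102.4 CPM (others 220.9 to 279.4). Its ligand and regulatory T cell gene sums lay within the others. The cause was not tested.

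Cd28, Ctla4 and Icos form a cluster on chromosome 1 (GRCm38, + strand) at 60716800 to 60773359, 60887000 to 60915832 and 60977927 to 61000320. The gaps were 113640 bases with 6 other annotated genes and 62094 bases with 1. Pdcd1 lies on the same chromosome at 94038305 to 94052553 (- strand). Lag3 (chromosome 6, 124904361 to 124911705, - strand) is separated from Cd4 by 16139 bases. Tigit and Btla both lie on chromosome 16, at 43648861 to 43664184 and 45224315 to 45252895. Havcr2 is on chromosome 11 (46454935 to 46481255), Vsir on chromosome 10 (60346851 to 60372684) and Cd160 on chromosome 3 (96798763 to 96829351). The last of these shares 68 exon bases with Pdzk1 on the opposite strand, which had 24 counts in all against 2459 for Cd160. Vsir lies inside Cdh23, also on the opposite strand, with no shared exon bases.

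RefSeq promoter windows (GRCm38.p6, the 250 bases upstream of the start) were found for 7 members, and those of the 3 members with the largest called averaged log2 changes on stimulation among the 7 are shown. Capitals mark the core recognition letters of NFAT, the calcium-driven factor of T cell activation, GGAAA on either strand (TTTCC on the strand shown).
Ctla4 (chr1:60908775-60909024, + strand): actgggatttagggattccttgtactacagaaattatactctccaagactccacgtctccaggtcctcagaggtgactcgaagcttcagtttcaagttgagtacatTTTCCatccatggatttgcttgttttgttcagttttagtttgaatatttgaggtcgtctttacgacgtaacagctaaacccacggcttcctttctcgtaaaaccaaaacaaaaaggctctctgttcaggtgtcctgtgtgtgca
Pdcd1 (chr1:94052554-94052803, - strand): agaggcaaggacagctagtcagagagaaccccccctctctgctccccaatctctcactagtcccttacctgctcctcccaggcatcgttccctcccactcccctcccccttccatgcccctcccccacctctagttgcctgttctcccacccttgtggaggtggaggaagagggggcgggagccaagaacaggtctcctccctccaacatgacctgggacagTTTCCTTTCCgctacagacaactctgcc
Cd160 (chr3:96829352-96829601, - strand): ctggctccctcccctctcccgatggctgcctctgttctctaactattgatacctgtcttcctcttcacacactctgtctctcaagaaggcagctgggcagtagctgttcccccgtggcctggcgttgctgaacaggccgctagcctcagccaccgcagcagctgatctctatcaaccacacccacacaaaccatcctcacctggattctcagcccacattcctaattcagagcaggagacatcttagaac
The Ctla4 window held 1 match, the Pdcd1 window 2 and this Cd160 window 0, while a second RefSeq window of Cd160 held 1. These 5 letters occurred in 55.6% of 32851 mouse windows of the same length. No AP-1 match (TGANTCA, 6.7% of windows, either strand) and no TATA box (TATAAA, 12.4%) was in these 3 windows. The matches are a description of the letters. The Ctla4 window lies within the span of the table's gene model but in none of its exons.

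Stimulation separated the receptors into opposite directions. Averaged over the 4 backgrounds (either label, without or with niacin), Ctla4 and Lag3 rose, and Cd160, Pdcd1, Cd28, Btla and Vsir fell. Icos, Havcr2 and Tigit did not pass the test (edgeR quasi-likelihood test, Benjamini-Hochberg adjusted p under 0.05 over 16882 genes). So 2 of 10 members were higher and 5 lower, where 35.3% of all genes were higher and 40.8% lower, 76.1% together. The share of members called was near that of all genes. Their median log2 fold change was -0.16, against -0.11 over all genes tested. In the single backgrounds 4 members passed in wild-type-labelled cells without niacin (45.1% of all genes), 5 in knockout-labelled cells without niacin (52.7%), 6 in wild-type-labelled cells with niacin (52.6%) and 5 in knockout-labelled cells with niacin (49.8%). In the same order, 5, 5, 7 and 6 members had groups that did not overlap, against 60.9%, 54.8%, 63.0% and 74.8% of all genes.

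**Figure D1:**
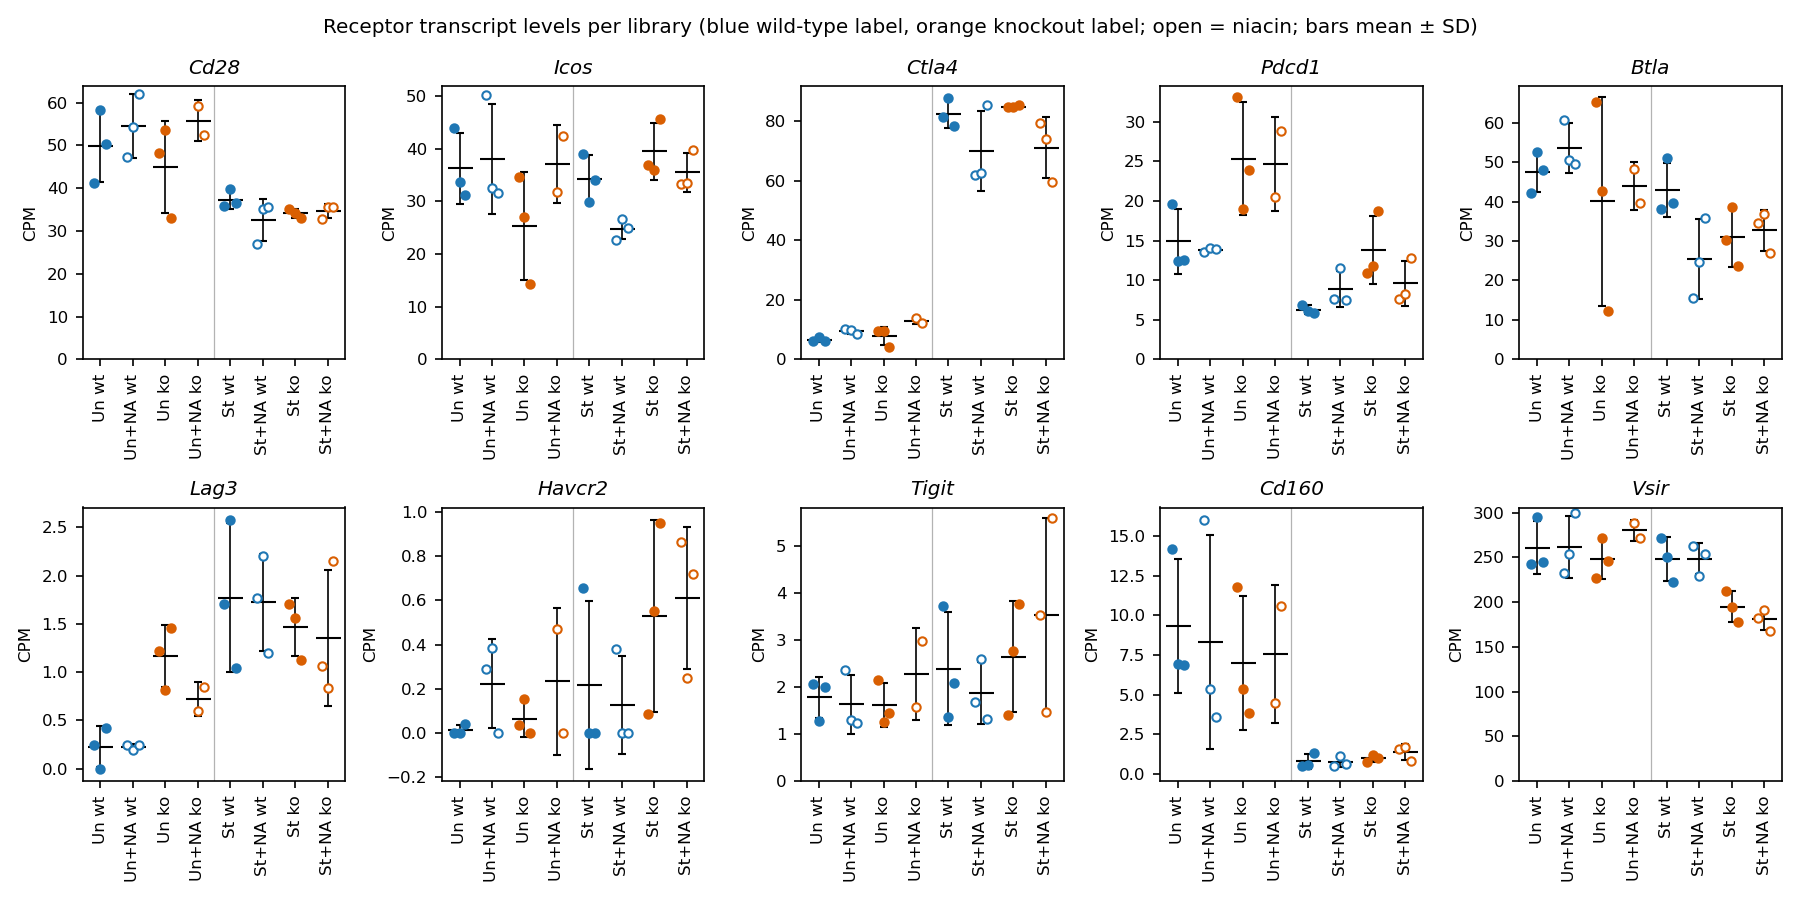
Level of each receptor transcript in CPM (y axis, from 0 or just below) in 23 libraries (points) of the 8 groups (x axis; Un unstimulated, St stimulated, NA niacin, wt and ko the genotype labels), with mean ± SD per group as bars. Ctla4 lies at 4.28 to 13.9 CPM in all unstimulated libraries and at 59.7 to 87.6 CPM in all stimulated ones, while Icos libraries of the 2 states overlap.

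Ctla4, the inhibitory counterpart of Cd28, had the largest averaged rise of the members. Its levels in the 3 unstimulated wild-type-labelled libraries were 6.21, 7.46 and 6.22 CPM without niacin, and 10.1, 9.76 and 8.50 CPM with niacin. In unstimulated knockout-labelled cells they were 9.65, 9.46 and 4.28 CPM without niacin, and 13.9 and 12.2 CPM with niacin. The low value of 4.28 CPM was in library 3, the one apart in depth and composition. After stimulation the wild-type-labelled libraries held 81.4, 87.6 and 78.3 CPM without niacin, and 62.0, 62.7 and 85.4 CPM with niacin. The stimulated knockout-labelled libraries held 84.6, 84.7 and 85.3 CPM without niacin, and 79.4, 74.1 and 59.7 CPM with niacin. Every stimulated library was above every unstimulated one. The averaged log2 change was 3.10 ± 0.12 (SE, adjusted p = 4.45e-15), from a mean of 9.23 to 77.1 CPM. With niacin the log2 changes were 2.89 ± 0.22 in wild-type-labelled cells (adjusted p = 2.03e-09) and 2.45 ± 0.25 in knockout-labelled cells (adjusted p = 2.29e-07).

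Cd28, the costimulatory receptor that the stimulating antibody targets, was lower after stimulation. In unstimulated wild-type-labelled cells it stood at 41.2, 58.3 and 50.3 CPM without niacin, and at 47.3, 54.4 and 62.1 CPM with niacin. Unstimulated knockout-labelled cells had 48.2, 53.6 and 32.9 CPM without niacin, and 59.2 and 52.4 CPM with niacin. The lowest of these, 32.9 CPM, was again library 3. All 12 stimulated libraries lay between 27.0 and 39.8 CPM, with a median of 35.4. The averaged log2 change was -0.56 ± 0.09 (adjusted p = 8.24e-06), from a mean of 51.3 to 34.7 CPM. With niacin, Cd28 fell in wild-type-labelled cells (-0.74 ± 0.17, adjusted p = 0.00126) and in knockout-labelled cells (-0.69 ± 0.19, adjusted p = 0.00522). Those calls were lost, in the same order, without the pair of low-mitochondrial libraries (adjusted p = 0.0707) and without the unstimulated library 2 (0.0670). Without niacin the values were -0.42 ± 0.17 (adjusted p = 0.0517) and -0.40 ± 0.17 (adjusted p = 0.0578). The first passed with DESeq2 (0.0155, where 48.7% of all genes did), with RLE factors (0.0297), in a fit of the compared groups alone (0.0359) and without unstimulated library 1 (-0.54, adjusted p = 0.0230). The second passed with DESeq2 (0.0114, against 55.7% of all genes), with RLE factors (0.0232) and without library 3 (-0.58, adjusted p = 0.00344).

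**Figure D2:**
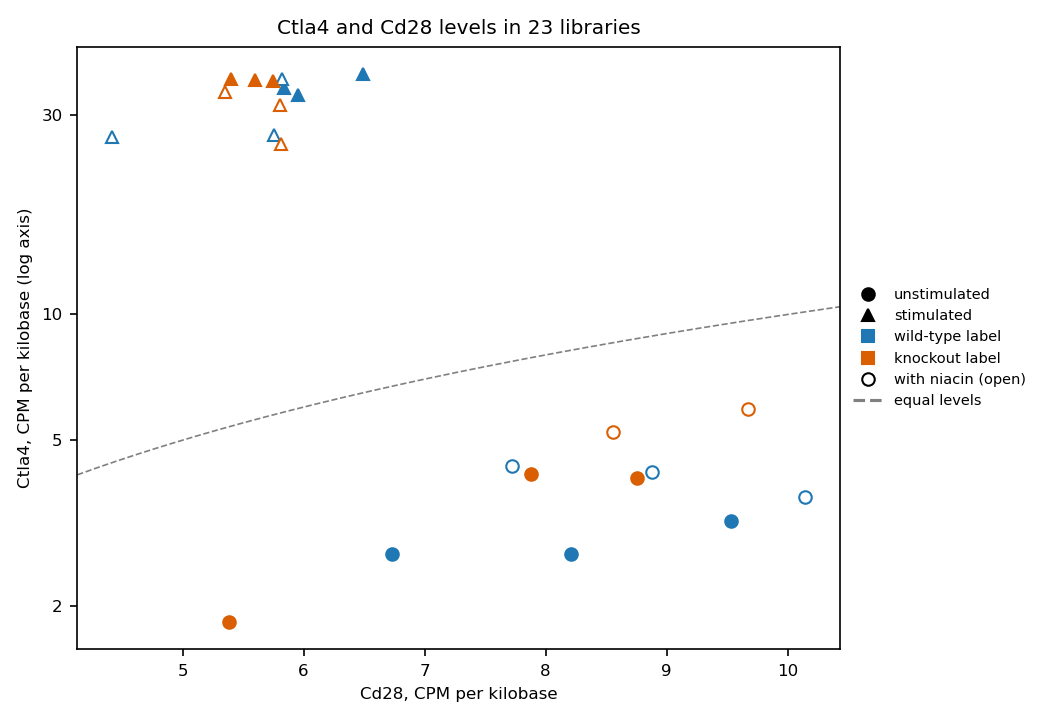
Ctla4 against Cd28 in 23 libraries, each in CPM per kilobase of exon (x axis linear, y axis logarithmic), with circles for unstimulated and triangles for stimulated cells and a dashed line at equal levels. The 11 unstimulated libraries lie below the line and the 12 stimulated ones above it.

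Per kilobase of exon, which allows levels of different genes to be compared, Ctla4 stood below Cd28 in every unstimulated library and above it in every stimulated one. The Ctla4 to Cd28 ratio of these per-length levels was 0.325 to 0.615 in the 11 unstimulated libraries and 4.41 to 6.78 in the 12 stimulated ones. Vsir had the highest per-length level of the 10 receptors in both states, with medians of 50.6 CPM per kilobase in unstimulated and 43.3 in stimulated libraries. Of the summed per-length level of the 10 receptors, Vsir made up a median of 51.4% in unstimulated libraries and 38.5% in stimulated ones. Ctla4 made up 3.70% and 30.4%.

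Icos, the inducible relative of Cd28, showed no common direction. Its averaged log2 change on stimulation was -0.03 ± 0.12 (adjusted p = 0.814), with a 95% interval of -0.29 to 0.23. In knockout-labelled cells without niacin the levels were 34.7, 27.1 and 14.4 CPM unstimulated, and 36.9, 35.9 and 45.7 CPM stimulated. In wild-type-labelled cells with niacin they were 50.1, 32.6 and 31.6 CPM unstimulated, and 22.7, 26.6 and 25.0 CPM stimulated. The groups did not overlap in either background, and the order was opposite. Icos rose in the first (0.63 ± 0.24, adjusted p = 0.0365) and fell in the second (-0.62 ± 0.24, adjusted p = 0.0384). The difference between these 2 changes, compared because they had been seen, was 1.25 ± 0.35 and missed the threshold (adjusted p = 0.0939, with 0.0237% of all genes past it). The rise was lost with RLE factors (0.0524) and in a fit of the compared groups alone (0.185). It was also lost without unstimulated library 2 (0.0558), unstimulated library 3 (0.158), stimulated library 1 (0.0501) or stimulated library 3 (0.129). The fall was lost without unstimulated library 1 (0.225), without each of stimulated libraries 1 (0.110), 2 (0.0590) and 3 (0.0697), and without libraries 1 and 2 together (0.214).

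Pdcd1, which encodes PD-1, was lower in stimulated than in unstimulated libraries of each background. Wild-type-labelled cells without niacin had 19.6, 12.5 and 12.6 CPM unstimulated, and 6.89, 6.06 and 5.87 CPM stimulated. With niacin, the same label gave 13.6, 14.02 and 13.9 CPM unstimulated, and 7.63, 11.5 and 7.56 CPM stimulated. In knockout-labelled cells without niacin the values were 33.1, 19.0 and 23.9 CPM unstimulated, and 10.9, 11.8 and 18.8 CPM stimulated. The 2 states did not overlap in any background, the nearest being 18.8 and 19.0 CPM in knockout-labelled cells. With niacin, knockout-labelled cells had 20.4 and 28.8 CPM unstimulated, and 7.68, 8.29 and 12.8 CPM stimulated. The averaged log2 change was -1.03 ± 0.14 (adjusted p = 1.18e-06), from a mean of 19.7 to 9.66 CPM. The fall passed in 3 backgrounds and not in wild-type-labelled cells with niacin (-0.63 ± 0.27, adjusted p = 0.0556). That value passed with DESeq2 (0.0262, against 55.4% of all genes), with RLE factors (0.0378), in a fit of the compared groups alone (0.0459) and without stimulated library 2 (-0.86, adjusted p = 0.0257). In knockout-labelled cells without niacin it was lost without unstimulated library 1 (adjusted p = 0.0718) or stimulated library 1 (0.0551).

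Btla, which binds the TNF receptor family member HVEM (Tnfrsf14), varied widely between replicates. Unstimulated knockout-labelled libraries without niacin ran from 12.3 through 42.6 to 65.2 CPM, the lowest being library 3. Stimulated wild-type-labelled libraries with niacin ran from 15.7 through 24.6 to 35.9 CPM, and the 2 lower ones were those with a low mitochondrial share. Over all 23 libraries the range was 12.3 to 65.2 CPM, and no neighbouring groups in the order of means were apart. The averaged log2 change on stimulation was -0.51 ± 0.19 (adjusted p = 0.0194), from 46.2 to 33.0 CPM. This call was lost without unstimulated knockout-labelled library 1 (0.0511) and without the pair of low-mitochondrial libraries (-0.37, adjusted p = 0.0791). Of the single backgrounds, Btla passed in the main fit only in wild-type-labelled cells with niacin, where it fell. That call was lost in 4 of 12 refits. Among these were the fits without unstimulated library 1 (0.0541), stimulated library 1 (0.0987) or stimulated library 2 (0.0542). The other left out the pair of low-mitochondrial libraries, leaving only stimulated library 3 of that group. There the log2 change was -0.60, the smallest of the refits. In knockout-labelled cells, Btla passed only in alternative fits. Without niacin it did so once library 3 was left out (-0.80, adjusted p = 0.0145). With niacin it did so in a fit of the compared groups alone (-0.44, adjusted p = 0.0466).

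Among the other inhibitory receptors, Vsir was the most abundant transcript and had the smallest averaged change. It ran from 168.0 to 299.3 CPM over all libraries, and its averaged log2 change on stimulation was -0.28 ± 0.07 (adjusted p = 0.000592). Knockout-labelled cells without niacin had 227.4, 272.1 and 246.4 CPM unstimulated, and 212.2, 195.1 and 177.5 CPM stimulated. With niacin they had 288.8 and 271.7 CPM unstimulated, and 182.7, 191.2 and 168.0 CPM stimulated. In both cases every stimulated library was below every unstimulated one. Vsir fell in knockout-labelled cells without niacin (-0.35 ± 0.13, adjusted p = 0.0256) and with niacin (-0.63 ± 0.14, adjusted p = 0.000948). In wild-type-labelled cells the changes were -0.07 ± 0.13 (adjusted p = 0.672) and -0.07 ± 0.13 (adjusted p = 0.638). The difference between labels was not called, at -0.28 ± 0.18 without niacin (adjusted p = 0.574) and -0.56 ± 0.19 with niacin (adjusted p = 0.358). The fall without niacin was lost without unstimulated library 2 (0.0997), stimulated library 2 (0.0592) or stimulated library 3 (0.109). It was also lost with no filter on low counts (0.0856) and in a fit of the compared groups alone (0.0906).

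**Figure D3:**
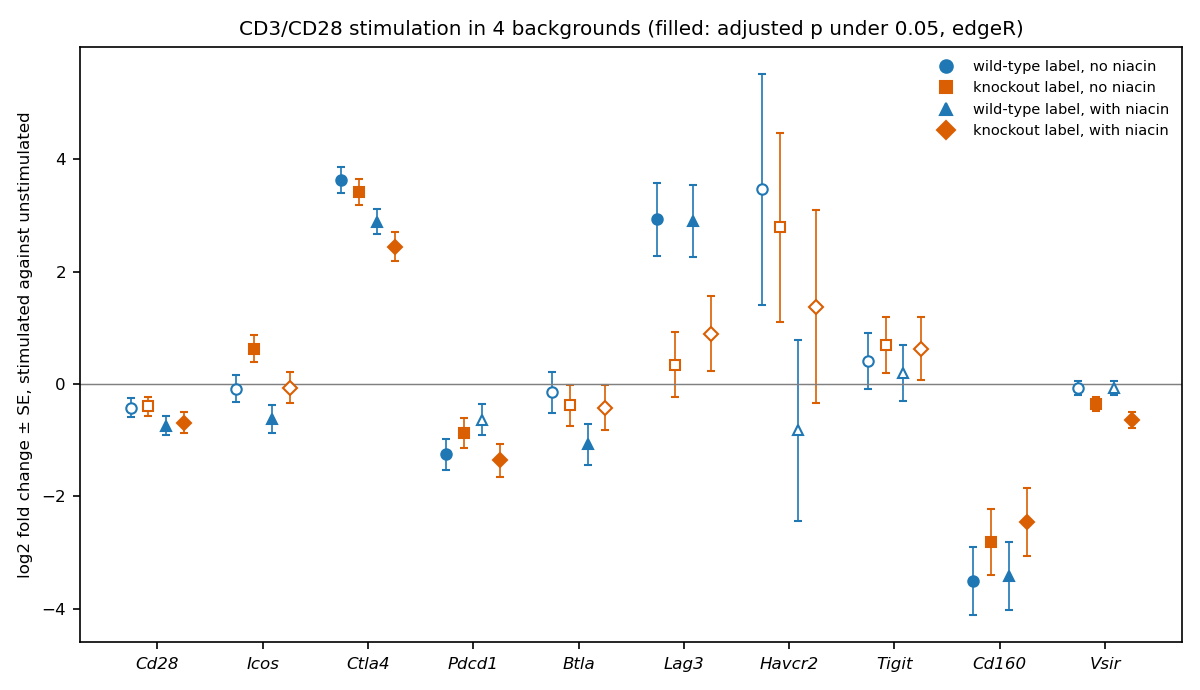
Log2 fold change of stimulated against unstimulated cells (y axis, ± SE from edgeR) for each receptor in the 4 backgrounds, with filled symbols where the adjusted p was under 0.05. Ctla4 is filled above 0 and Cd160 filled below 0 in all 4, and the Lag3 symbols are filled in wild-type-labelled cells.

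Lag3, a receptor that binds MHC class II, was scarce, with 592 counts in all. Unstimulated wild-type-labelled libraries held 6, 0 and 10 counts without niacin (0.248, 0 and 0.423 CPM), and 6, 5 and 7 counts with niacin. Unstimulated knockout-labelled libraries were at 1.22, 0.818 and 1.45 CPM without niacin, and at 0.597 and 0.849 CPM with niacin. Stimulated libraries of all groups ran from 0.837 to 2.58 CPM. Unstimulated wild-type-labelled cells thus stood below all the other groups. Lag3 rose on stimulation in wild-type-labelled cells without niacin (2.93 ± 0.65, adjusted p = 0.00102) and with niacin (2.90 ± 0.64, adjusted p = 0.000839). In knockout-labelled cells the values were 0.35 ± 0.58 (adjusted p = 0.632) and 0.90 ± 0.67 (adjusted p = 0.272). The differences between labels, -2.59 ± 0.86 (adjusted p = 0.419) and -2.00 ± 0.90 (adjusted p = 0.430), were not called.

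Havcr2 and Tigit were also low, and neither passed in the averaged comparison. Havcr2, which encodes TIM-3, had 137 counts in all and none in 9 of 23 libraries, where 3 counts correspond to at most 0.257 CPM. Its highest library held 0.951 CPM, and its averaged change had an adjusted p of 0.0881. Tigit, which binds the poliovirus receptor Pvr, ran from 1.23 to 5.58 CPM, and its averaged log2 change was 0.48 ± 0.26 (adjusted p = 0.0934, 95% interval -0.05 to 1.02). Tigit passed without stimulated knockout-labelled library 2 with niacin (adjusted p = 0.0371), and Havcr2 without its unstimulated counterpart (0.0275). With no filter on low counts, Havcr2 passed in the averaged comparison (1.66, adjusted p = 0.0134, with 46.6% of 30367 genes called) and in wild-type-labelled cells without niacin (3.46, adjusted p = 0.0486, with 25.2% called).

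Cd160, a receptor known from NK cells and some T cells, had the largest fall of the members. Wild-type-labelled unstimulated libraries held 14.2, 6.94 and 6.86 CPM without niacin, and 16.0, 5.34 and 3.59 CPM with niacin. Knockout-labelled unstimulated libraries held 11.8, 5.37 and 3.85 CPM without niacin, and 4.48 and 10.6 CPM with niacin. All 12 stimulated libraries lay between 0.524 and 1.72 CPM, below every unstimulated one. The averaged log2 change was -3.05 ± 0.30 (adjusted p = 1.18e-08), from a mean of 8.05 to 0.987 CPM. In knockout-labelled cells with niacin the call was lost without unstimulated library 3 (adjusted p = 0.0695).

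Markers of NK and gamma delta T cells moved with this change, and their part in it was not tested. Of 12 such markers 10 fell on stimulation and 1, Eomes, rose, where 40.8% and 35.3% of all genes did so in the averaged comparison. Klrd1, an NK receptor chain, went from a mean of 21.6 to 1.62 CPM, and Trdc, the constant part of the delta chain, from 16.5 to 5.73 CPM. Nkg7 stayed uncalled, at 110.1 and 112.5 CPM. The 12 markers summed to 164.4 to 258.4 CPM in unstimulated wild-type-labelled libraries without niacin and to 169.0 to 344.0 CPM with niacin. In unstimulated knockout-labelled libraries the sums were 177.4 to 244.3 CPM without niacin and 174.9 to 298.8 CPM with niacin. Stimulated libraries summed to 166.6 to 244.5, 177.7 to 232.4, 223.5 to 236.0 and 222.4 to 258.8 CPM for the wild-type label without and with niacin and the knockout label without and with niacin. Eomes and Nkg7 made up 86.1% to 94.5% of the sum in stimulated libraries and 43.1% to 75.6% in unstimulated ones. The other 10 markers, a split chosen after the values were seen, summed to 53.1 to 166.4 CPM in the 11 unstimulated libraries and to 11.9 to 28.5 CPM in the 12 stimulated ones, without overlap. Ncr1 was at 0 in 11 libraries and Klrb1c in 6. Across the 11 unstimulated libraries, log2 levels of Cd160 and of the summed markers had a Pearson r of 0.81, and across the 12 stimulated libraries 0.57, a description over libraries that share groups. With the other 10 markers in place of all 12, r was 0.75 and 0.07. In these bulk libraries, fewer cells of a type and less RNA per cell cannot be told apart.

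**Figure D4:**
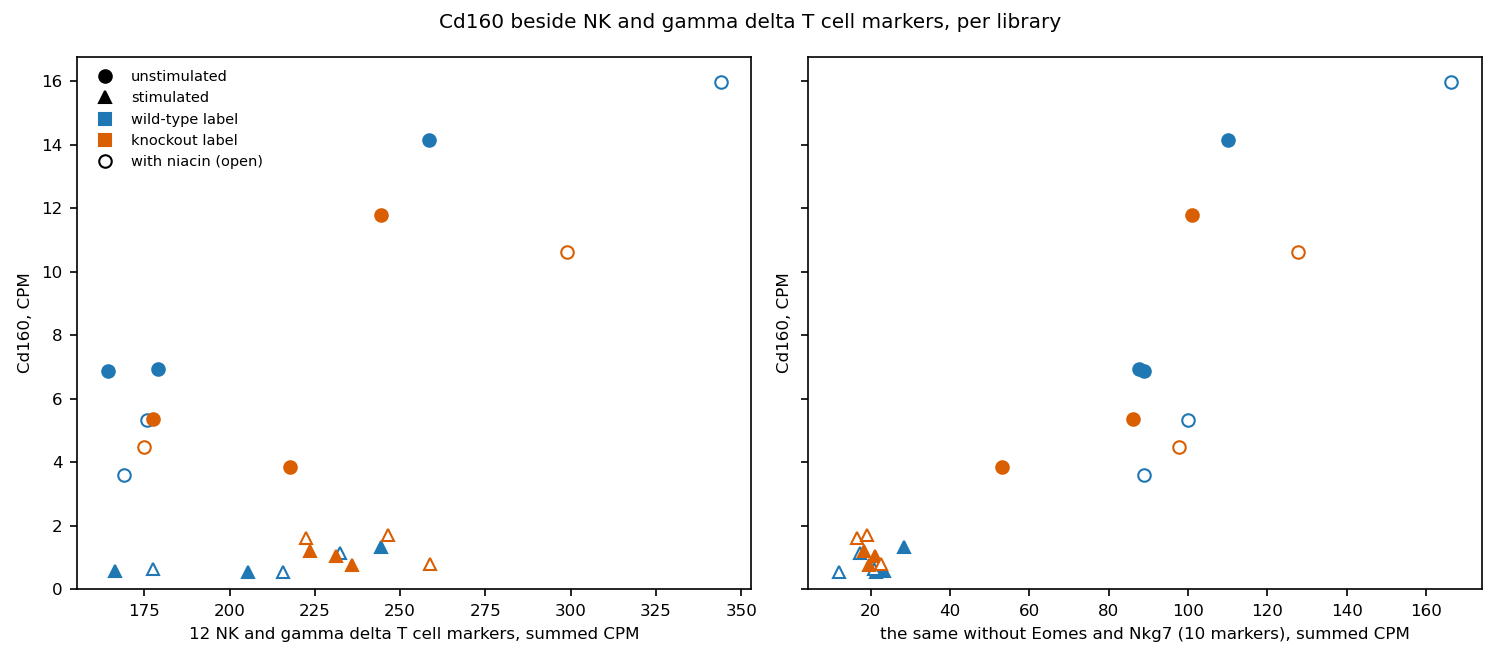
Cd160 (y axis, CPM) in 23 libraries against the summed CPM (x axes) of the 12 markers of NK and gamma delta T cells (left) and of the 10 left without Eomes and Nkg7 (right), with circles for unstimulated and triangles for stimulated cells, blue and orange for the wild-type and knockout labels, and open symbols for niacin. Stimulated libraries lie at or below 1.72 CPM of Cd160, and their sums overlap with those of unstimulated libraries on the left and lie below all of them on the right.

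Markers of other cells were compared on stimulation averaged over the backgrounds, where 35.3% of all genes rose and 40.8% fell. Of 10 B cell markers 0 rose and 4 fell on stimulation among 8 tested. Their sum, 415.7 to 1108 CPM, was mostly Ighm, and Pax5 was at 0 in 21 libraries. Of 14 myeloid and dendritic markers 7 were tested, 1 rose and 4 fell, with sums of 1.14 to 14.2 CPM and C1qa at 0 in all 23 libraries. Neither of 2 CD8 T cell markers was called. Of 5 erythroid and platelet markers 2 were tested, 1 higher and 1 lower, with sums of 0.0414 to 6.02 CPM. Of 9 general CD4 T cell genes 6 rose and 1 fell, and of 8 follicular helper genes 2 rose and 2 fell. Of 12 regulatory T cell genes 7 rose and 5 fell. They summed to 809.4 to 1272 CPM in unstimulated libraries and to 3892 to 4291 CPM in stimulated ones. The sum was weighted by its most abundant genes, Il2ra and Tnfrsf18, at up to 1767 and 1270 CPM, where Ikzf2 reached 42.1 CPM. Foxp3, among the genes lower after stimulation, had 109.9 to 211.1 CPM in unstimulated and 35.7 to 67.6 CPM in stimulated libraries.

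Genes that work with the receptors also changed on stimulation, with the 76.1% of all genes called as background. Of 20 ligand genes 14 were tested, 7 rose and 3 fell (median log2 change 0.38). Cd86, a ligand of both Cd28 and Ctla4, rose by 1.88 ± 0.21 to 18.4 CPM (adjusted p = 9.13e-08), and Pvr, the ligand of Tigit, by 0.86 ± 0.12 (adjusted p = 1.15e-06). Cd274, which encodes PD-L1, fell from 116.9 to 16.2 CPM (-2.79 ± 0.16, adjusted p = 1.77e-12). Tnfrsf14, whose product binds both Btla and Cd160, fell from 16.9 to 3.996 CPM (-2.09 ± 0.14, adjusted p = 2.77e-11). All 4 CD226 and nectin-binding receptor genes fell, among them Cd226, the activating competitor of Tigit (-2.07 ± 0.14, adjusted p = 3.59e-11), and Cd96 (-1.76 ± 0.14, adjusted p = 3.80e-10).

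Of 25 cytoplasmic partners of the receptors 10 rose and 7 fell (median 0.07). Ptpn6, the phosphatase SHP-1 recruited by inhibitory receptors, rose from 203.7 to 444.4 CPM (1.12 ± 0.06, adjusted p = 8.34e-13), and Sh2d1a, the adaptor SAP, rose by 0.71 ± 0.13 (adjusted p = 3.60e-05). Lrba, which protects CTLA-4 from degradation, fell by 1.66 on the log2 scale, from 36.0 to 11.3 CPM (adjusted p = 8.36e-09). Trat1 fell by 1.64 on the log2 scale, from 70.3 to 22.5 CPM (adjusted p = 1.78e-08). A list of 21 genes of other inhibitory receptors also held genes that are not receptors, such as Entpd1 and Cd200. Of the 21, 18 were tested, 4 rose and 9 fell (median -0.46). Lilrb4a rose from 2.21 to 5.31 CPM (adjusted p = 0.000835) and Entpd1, the ectonucleotidase CD39, from 15.6 to 25.5 CPM (adjusted p = 0.000211). Klrc1, an NK receptor chain, fell from 7.78 to 0.956 CPM (adjusted p = 4.66e-08) and Cd200r1, the receptor of CD200, from 20.02 to 4.15 CPM (adjusted p = 1.48e-09).

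Of 31 transcription factors known to act on receptor genes 30 were tested, 11 rose and 14 fell (median -0.02). Eomes, a T-box factor, rose from 8.21 to 89.2 CPM (3.57 ± 0.20, adjusted p = 1.49e-12) and Nr4a1, an early factor of antigen receptor signalling, from 3.24 to 34.2 CPM (3.53 ± 0.31, adjusted p = 1.58e-09). Bcl6, the repressor that defines follicular helper cells, fell from 31.3 to 3.98 CPM (-2.98 ± 0.15, adjusted p = 2.98e-13). Tcf7, a factor of naive and memory cells, fell from 1818 to 435.7 CPM (-2.07 ± 0.08, adjusted p = 6.83e-15).

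Niacin moved no member past the threshold in any of the 4 single comparisons with edgeR, where 0% to 0.00592% of all genes passed. At an unadjusted p under 0.05 there was 1 member in each unstimulated comparison (2.71% of all genes with the wild-type label, 7.96% with the knockout label) and 0 in each stimulated one (9.96% and 5.22%). DESeq2 called 0 members in these 4, and 0.0830%, 0.0415%, 0.249% and 0.0652% of all genes. Ctla4 was the member in both unstimulated comparisons. Its mean went from 6.63 ± 0.72 CPM (SD, n = 3) to 9.45 ± 0.84 CPM (n = 3) with niacin in wild-type-labelled cells, and from 7.80 ± 3.05 CPM (n = 3) to 13.03 ± 1.18 CPM (n = 2) in knockout-labelled cells. The groups did not overlap in either, as for 9.66% and 16.6% of all genes. In stimulated cells 4 members with the wild-type label (Cd28, Icos, Pdcd1 and Btla) and 1 with the knockout label (Ctla4) had groups apart, against 14.2% and 13.8% of all genes. The unstimulated log2 values of Ctla4 were 0.51 ± 0.22 (SE) and 0.71 ± 0.23. Averaged over the labels, the value was 0.61 ± 0.16 (adjusted p = 0.239, 95% interval 0.28 to 0.94). edgeR called 0 members and 0.0948% of all genes here, and 1 member, Ctla4, had an unadjusted p under 0.05, as did 8.12% of all genes. DESeq2 called it (adjusted p = 0.0167), as it did 0.462% of all genes. A fit with no filter on low counts called it as well (0.0177, with 1.09% of genes called), and called Btla in stimulated wild-type-labelled cells (-0.76, adjusted p = 0.0438, with 1.13% called).

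In stimulated cells the averaged value of Ctla4 with niacin was -0.25 ± 0.14 (adjusted p = 0.628). Here 0 members passed with edgeR (0.0948% of all genes) or with DESeq2 (0.705%), and 0 had an unadjusted p under 0.05 (8.74%). The difference between the stimulated and the unstimulated niacin values was -0.86 ± 0.21 (adjusted p = 0.272), where edgeR called 0% of genes. DESeq2 called this difference (adjusted p = 0.0171) and 0.320% of all genes, and a fit with no filter called it (0.0101) and 1.70%. The stimulated wild-type-labelled niacin group held the pair of low-mitochondrial libraries, which had 62.0 and 62.7 CPM against 85.4 CPM in the third. For Cd28 the averaged niacin values had intervals of -0.05 to 0.49 in unstimulated and -0.34 to 0.17 in stimulated cells, and for Vsir of -0.11 to 0.29 and -0.24 to 0.13. Of the related lists, Foxp3, the regulatory T cell factor, rose with niacin in stimulated cells, from 40.0 to 58.6 CPM (0.55 ± 0.10, adjusted p = 0.0486). The Foxp3 value lay just under the threshold and was not refitted under the alternatives.

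**Figure D5:**
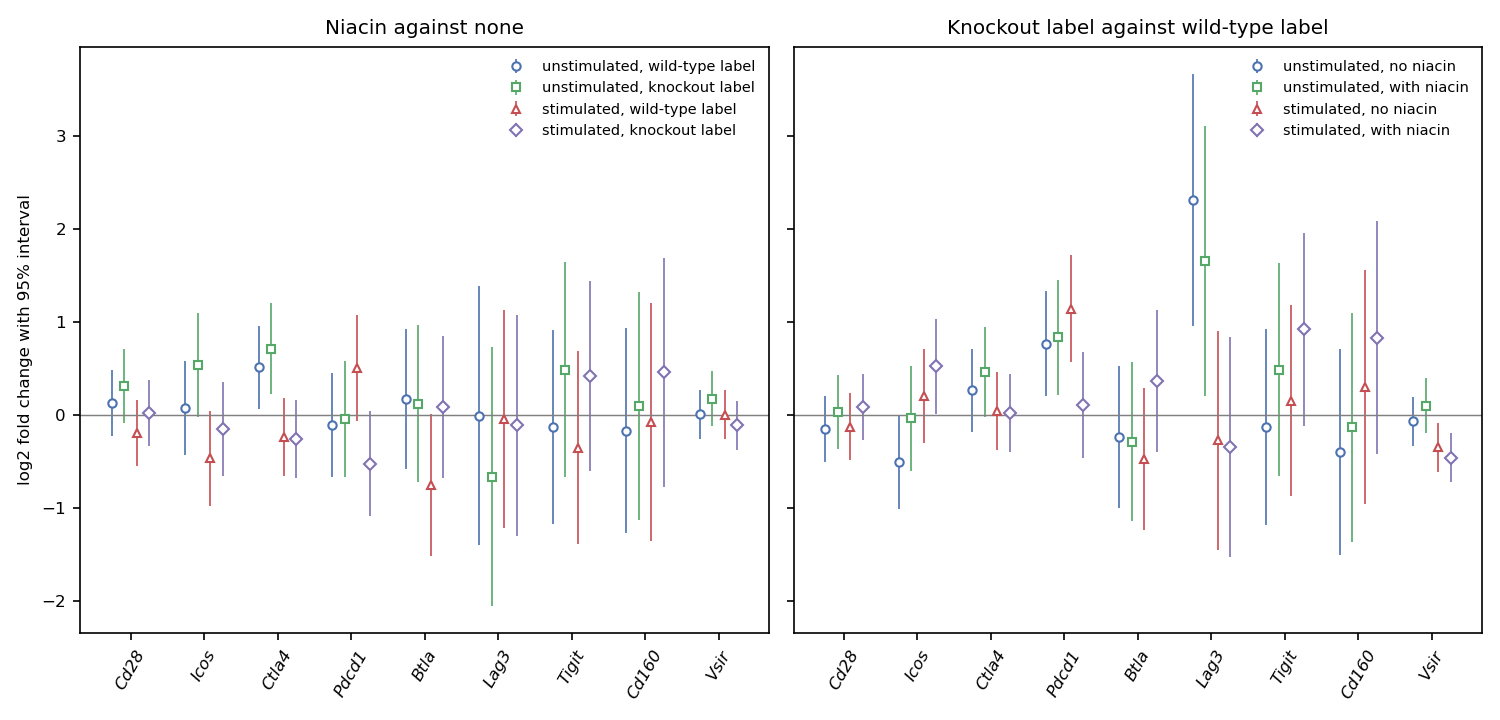
Log2 fold change with its 95% interval (y axis, edgeR) of niacin against none (left) and of the knockout against the wild-type label (right) for 9 receptors (Havcr2, with zeros in 9 libraries, is left out), in 4 settings each. No single comparison passed after adjustment, and the Pdcd1 values on the right run from 0.11 to 1.14.

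Between the genotype labels, no member passed with edgeR in any of the 4 single comparisons, where 0.0415% and 0.0355% of all genes did in unstimulated cells without and with niacin, and 0.113% and 1.44% in stimulated cells. At an unadjusted p under 0.05 there were 2 members in each, against 10.4%, 0.983%, 8.45% and 19.4% of all genes in that order. DESeq2 called 0 members in unstimulated cells (0.130% and 0.107% of all genes) and 1 member in each of the 2 stimulated comparisons (0.604% and 6.65%). Groups were apart for 1, 4, 3 and 2 members in the same order, against 7.44%, 15.3%, 20.5% and 26.5% of all genes. Averaged over the 4 conditions, Pdcd1 was the 1 member called, among 0.326% of all genes.

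Pdcd1 was higher in knockout-labelled cells by 0.71 ± 0.14 on the log2 scale (adjusted p = 0.0223), with a mean of 18.4 CPM against 10.98 CPM. The log2 values were 0.77 ± 0.27 and 0.83 ± 0.30 in unstimulated cells without and with niacin, 1.14 ± 0.28 in stimulated cells without niacin and 0.11 ± 0.27 with niacin. In stimulated cells without niacin the lowest knockout-labelled library, at 10.9 CPM, was above the highest wild-type-labelled one, at 6.89 CPM. DESeq2 called that single comparison (adjusted p = 0.0185) and edgeR did not (0.160), except with no filter on low counts (0.0190, with 0.685% of genes called). The averaged call was lost on leaving out any of 6 libraries. These were unstimulated wild-type-labelled library 2 (0.0551) or 3 (0.0536), unstimulated knockout-labelled library 3 with niacin (0.141), stimulated wild-type-labelled library 1 with niacin (0.0508), and stimulated knockout-labelled library 3 without niacin (0.0537) or with niacin (0.0515). It was also lost without the pair of low-mitochondrial libraries (0.0536).

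Vsir in stimulated cells was lower in every knockout-labelled library than in every wild-type-labelled one. Without niacin the levels were 272.0, 250.6 and 222.4 CPM against 212.2, 195.1 and 177.5 CPM, and with niacin 262.5, 229.6 and 253.8 CPM against 182.7, 191.2 and 168.0 CPM. The log2 values were -0.35 ± 0.13 (adjusted p = 0.448) and -0.46 ± 0.13 (adjusted p = 0.0667), so neither passed with edgeR, while DESeq2 (adjusted p = 0.00700) and a fit of the compared groups alone (0.0492) called the second. In unstimulated cells the labels overlapped, at -0.07 ± 0.13 and 0.10 ± 0.14.

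Lag3 differed between labels in unstimulated cells without passing. Its values were 2.31 ± 0.65 (adjusted p = 0.409) without niacin and 1.66 ± 0.70 (adjusted p = 1) with niacin, and the groups did not overlap in either, as for 7.44% and 15.3% of all genes. In stimulated cells they were -0.27 ± 0.57 and -0.35 ± 0.57, with overlapping groups. Across 7 tests of whether a factor changed the effect of another, edgeR called 0 members, and 0% to 0.00592% of all genes. For niacin by stimulation in wild-type-labelled and in knockout-labelled cells, 1 member each had an unadjusted p under 0.05, against 7.36% and 6.77% of all genes. For label by stimulation without and with niacin there were 1 and 2 (10.5% and 11.0%), for label by niacin in unstimulated and stimulated cells 0 and 1 (1.93% and 5.18%), and for the averaged niacin by stimulation test 2 (11.9%). DESeq2 called Ctla4 in the averaged test, and 0 members in the other 6, where it called 0.0415%, 0.00593%, 0.0356%, 0.403%, 0.00593% and 0.0296% of all genes in the order above.

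For the 6 members with a mean of at least 5 CPM, the 3 genes with the most similar profile among 9742 were found. The measure was Pearson's r of log2 CPM over the 23 libraries, a description in which a common shift on stimulation can dominate. The best matches of Ctla4 were Prelid2 (r = 0.99), Bnip3 (0.99) and Hilpda (0.99). Within the 12 stimulated libraries alone these were 0.83, 0.87 and 0.34. Vsir was most like Ccr7 (0.94), Saraf (0.93) and Tsc22d3 (0.93), and within stimulated libraries these were 0.94, 0.93 and 0.94. The best matches of Pdcd1 included Cxcr3 (0.84) and Scly (0.83). Within unstimulated libraries these were 0.71 and 0.85, and within stimulated ones 0.58 and 0.36. Cd28 was most like Tnfrsf26 (0.97), Eps15 (0.96) and Usp28 (0.95). Within unstimulated libraries these were 0.96, 0.92 and 0.94, and within stimulated ones 0.74, 0.70 and 0.45. Btla was most like Rbm18 (0.93), Zfp429 (0.92) and Clec2i (0.91), and Icos like Tmem209 (0.86), Gdap2 (0.85) and Zc3h14 (0.84). Within either state alone, r was 0.86 to 0.96 for the Btla matches and 0.80 to 0.90 for the Icos matches. Among the members themselves, Ctla4 and Btla had an r of -0.27 over all libraries and 0.90 once each group's mean was removed. Unstimulated knockout-labelled library 3 without niacin was low in both. So was the pair of low-mitochondrial libraries, at 62.0 and 62.7 CPM of Ctla4 and 15.7 and 24.6 CPM of Btla. Cd28 and Ctla4 had an r of -0.71 over all libraries and 0.65 around the group means. The same library 3 was the lowest of its group in both, at 32.9 and 4.28 CPM.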

How the data were processed

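RNA was isolated with TRIzol and amplified by the SMART-seq V4 kit, then sequenced as paired ends, per the labels' protocols. The authors deposited counts of reads per gene. Trimmomatic 0.38, STAR 2.7.0e and featureCounts 1.6.3, with the builds GRCm38.p5 and mm10, are named in the submitters' processing notes. The sources used here give neither the strand setting nor the annotation release. The deposited table also holds each gene's exon length, used for levels per kilobase. Amplified reads carry no molecular identifiers, so limits from counts of 0 cover counting error only.

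Counts of all 23 libraries were fitted in edgeR 4.0.16 (R 4.3.3; TMM factors, filterByExpr with a minimum count of 10, a mean per group, quasi-likelihood F test), which kept 16882 genes and all 10 members. The p-values were adjusted by Benjamini-Hochberg over these genes within each of 23 comparisons. The common biological coefficient of variation was 27.4%, with 15 residual degrees of freedom. The script was tested on simulated data. Alternatives were DESeq2 1.42.0, RLE factors, no filter, a replicate block, only the compared groups, leaving out each library, and, chosen after seeing the data, leaving out the pair with a low mitochondrial share. Named genes were all members, the 3 most similar genes of each member above 5 CPM, and up to 2 genes per direction and related list with the largest change at 5 CPM or more in the averaged comparisons; 1 similar gene is not reported here. Klrd1, Trdc, Nkg7 and other markers were named after their values were seen. The members and lists were chosen with earlier results of these data known.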

Additional observations from a re-analysis of the deposited data

How the results depend on the processing

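Of 28 member and comparison pairs that passed the threshold, refitted 445 times under the alternatives, 411 kept their direction and call, 34 lost the call and 0 reversed. Of 202 pairs that did not pass, refitted 2985 times, 27 values became calls. With no filter on low counts, 1 member passed in each of the niacin comparison of stimulated wild-type-labelled cells (Btla, adjusted p = 0.0438), the label comparison of stimulated cells without niacin (Pdcd1, 0.0190), the averaged niacin comparison of unstimulated cells (Ctla4, 0.0177) and the averaged niacin by stimulation test (Ctla4, 0.0101), where 1.13%, 0.685%, 1.09% and 1.70% of 30367 genes passed. Havcr2 also passed with no filter for the averaged stimulation (0.0134) and for stimulation of wild-type-labelled cells without niacin (0.0486). DESeq2 called Pdcd1 in the label comparison of stimulated cells without niacin. It called Ctla4 in the averaged niacin comparison of unstimulated cells and in the averaged niacin by stimulation test. It also gave 1 member in the label comparison of stimulated cells with niacin, where fitting only the compared groups also gave 1 (Vsir, 0.0492). Fitting only the compared groups gave 3 in place of 5 members for stimulation of knockout-labelled cells without niacin, and leaving out single libraries gave 3 to 6. Leaving out single libraries gave 0 to 1 for the averaged label comparison, 4 to 6 for stimulation of wild-type-labelled cells with niacin, and 6 to 8 for the averaged stimulation. Without the pair of low-mitochondrial libraries, chosen after seeing the data, these became 0 for the averaged label comparison and 3 for stimulation of wild-type-labelled cells with niacin. The causes were not tested. RLE factors moved the CPM levels by -3.18% to 3.28%. Whether same-numbered libraries had a common source is not given and was not tested. Over all genes, the correlations of their deviations ran from -0.18 to 0.29, and in 0 comparisons was every pair over 0.1. Single genes could still follow the number. Library 1 had the highest Cd160 of unstimulated wild-type-labelled cells without niacin (14.2 CPM) and with niacin (16.0 CPM). The same held in unstimulated knockout-labelled cells without niacin (11.8 CPM). In no stimulated group was library 1 the highest. With the replicate block 5 in place of 4 members passed for stimulation of wild-type-labelled cells without niacin, Cd28 being added (adjusted p = 0.0490), and the other counts were unchanged. Depth limits Lag3 and Havcr2 most, with 592 and 137 counts over 23 libraries.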
